A study of Mus musculus with 6 samples.

Results

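A list of genes that make cholesterol, sense it, move it between membranes, export it and store it was followed in lung RNA of Zpbp2 KO and WT mice. The list is not the whole pathway, and other genes with central roles in it are not reported here. They were 29 genes, found by their symbols among the 41388 genes of the count table, and all 29 passed the filter on low counts. RNA sequencing was done on whole lungs of adult mice collected at ZT7, which is 7 h into the light phase, in 3 WT libraries (WT1, WT2 and WT3) and 3 KO libraries (KO1, KO2 and KO3). WT mice were C57BL/6J. KO mice, also labelled C57BL/6J, came from the line B6.129S7-Zpbp2tmZuk/Mmjax, which lacks the first exons and part of the promoter of Zpbp2, and both genotypes were kept in the same colony, so sequence of the donor strain can remain near Zpbp2 on chromosome 11. None of the 29 genes lies on that chromosome. The study asked how the Zpbp2 region and the circadian clock act on each other. Zpbp2 had 20, 15 and 7 counts in WT1 to WT3 and 1, 0 and 0 counts in KO1 to KO3.

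Cells build cholesterol from acetyl-CoA through mevalonate, the isoprenoids and squalene, which is closed into the first sterol ring and then trimmed in the later sterol steps. When sterol in the endoplasmic reticulum is low, Scap escorts the transcription factor Srebf2 to the Golgi, where it is cut and set free to switch on the synthesis genes, and the Insig proteins hold this transport back when sterol is plentiful. Cholesterol taken up with lipoproteins leaves the lysosome through Npc2 and Npc1, is exported by Abca1 and Abcg1 under the control of oxysterol receptors, or is esterified by the Soat enzymes for storage. In the lung, alveolar type 2 cells secrete surfactant, which holds phospholipid and cholesterol, and alveolar macrophages help to clear it.

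Promoters were looked at first, because the members are known to share regulatory sequence. RefSeq promoters of GRCm38.p6, each 300 bases long (250 before and 50 after a start site), were matched by symbol for 22 of the 29 genes, with 28 promoters in all. Fdps, Fdft1, Sqle, Stard4, Npc1, Abcg1 and Soat2 had no match. On either strand, the CCAAT box (CCAAT), bound by the factor NF-Y, which works beside Srebf2, was found in 19 of the 28 promoters (67.9%), against 37.4% of all 32851 promoters of that length. The sterol response motif TCACNCCAC was found in 1 of the 28, that of Hmgcs1, against 1.24% of all promoters, and the shorter CACCCCAC, which overlaps it, in 2 (Hmgcs1 and Acat2), against 2.87%. A strict form of the nuclear receptor direct repeat that oxysterol receptors bind was in none of them and in 0.0152% of all promoters. The 250 bases before the start site are shown for Hmgcs1, which holds both kinds of motif, and for the 3 genes with the smallest p values below, Npc2, Abca1 and Ebp. Capitals mark exact matches to the motifs that were searched, and Abca1 held none. Looser forms of these motifs were not searched, so a site with other letters in the Abca1 promoter would be missed.
Hmgcs1 (chr13:119690101-119690350, plus strand): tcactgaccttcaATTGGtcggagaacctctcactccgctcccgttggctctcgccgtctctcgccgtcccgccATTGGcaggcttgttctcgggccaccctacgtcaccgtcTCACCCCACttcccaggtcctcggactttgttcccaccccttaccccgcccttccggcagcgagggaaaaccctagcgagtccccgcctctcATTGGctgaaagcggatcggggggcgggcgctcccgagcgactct
Npc2 (chr12:84773113-84773362, minus strand): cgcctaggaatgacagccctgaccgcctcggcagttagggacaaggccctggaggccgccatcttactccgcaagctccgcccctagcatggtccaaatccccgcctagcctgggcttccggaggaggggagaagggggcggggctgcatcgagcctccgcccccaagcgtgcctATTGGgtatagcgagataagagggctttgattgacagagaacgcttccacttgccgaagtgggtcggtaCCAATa
Abca1 (chr4:53159896-53160145, minus strand): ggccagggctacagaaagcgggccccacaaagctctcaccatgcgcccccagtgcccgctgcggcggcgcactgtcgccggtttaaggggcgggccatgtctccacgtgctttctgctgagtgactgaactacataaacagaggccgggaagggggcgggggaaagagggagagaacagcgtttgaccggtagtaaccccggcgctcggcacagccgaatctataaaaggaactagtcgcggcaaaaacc
Ebp (chrX:8193513-8193762, minus strand): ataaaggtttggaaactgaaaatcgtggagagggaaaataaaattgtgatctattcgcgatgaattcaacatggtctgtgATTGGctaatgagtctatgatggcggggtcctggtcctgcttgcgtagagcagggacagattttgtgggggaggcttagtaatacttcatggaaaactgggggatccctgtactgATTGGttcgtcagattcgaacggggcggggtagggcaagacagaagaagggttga

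Total counts ranged from 59134950 to 71354388 per library. KO2 and KO3 lay closer to each other than any other pair of the same genotype, at 1.71 to 3.33 times the counting variance from low to high counts, against 1.86 to 50.6 times between WT1 and WT2 and 3.74 to 158 times between KO1 and KO2. Among genes of 20 to 200 counts the first 2 pairs were close (1.71 and 1.86 times), and they parted at higher counts, where KO2 and KO3 stayed at 1.79 and 1.94 times and WT1 and WT2 were at 3.67 and 9.27 times. KO2 and KO3 were taken as 1 sample, which leaves n = 3 WT and n = 2 KO samples. WT3 and KO1 stood apart, with 4812 and 9172 CPM (read counts relative to the total of a library, scaled for its composition) of 17 squamous epithelium marker genes against 9.83 to 15.9 CPM in the other libraries. Of these 17 genes Crnn was at 0 everywhere, and none of the 16 tested was called. KO2 and KO3 stood apart as well, with 18992 and 19737 CPM of 8 erythroid marker genes against 2400 to 5522 CPM in the other libraries, and with 51.5 and 51.6 CPM of 11 hepatocyte marker genes against 5.22 to 9.14 CPM. Adipocyte marker genes summed to 1409 to 2205 CPM in WT and 395 to 488 CPM in KO, with all 15 lower by the estimate and 4 called lower, and the 10 cardiomyocyte marker genes summed to 2623 to 7363 CPM in WT and 1369 to 1599 CPM in KO. The 5 club cell marker genes were at 30480 to 35445 CPM in WT and 41009 to 54450 CPM in KO. The part of these in the results was not tested, and levels given below per marker sum are descriptions. The 13 alveolar type 2 marker genes summed to 24163 to 25235 CPM in WT and to 33735 to 35603 CPM in KO, 12 of them were higher by the estimate, 5 were called higher, and none was at 0. Among all genes tested, 47.8% of estimates were below 0, 1.38% were called higher and 0.906% lower. In whole lung RNA, fewer cells of a type and less RNA per cell cannot be told apart.

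The comparison of KO with WT asked whether any step of cholesterol handling differed. With edgeR and an adjusted p of at most 0.05, 1 of the 29 genes was called, Npc2, which was higher in KO. Over all 18660 genes tested, 2.28% were called, 1.38% higher and 0.906% lower. The median log2 fold change was 0.04 over the 29 genes and 0.02 over all genes, and 17 of the 29 estimates were above 0 and 12 below 0 (47.8% of all genes were below 0). The unadjusted p was at most 0.05 for 3 genes, Npc2, Ebp and Abca1, and for 27.3% of all genes. The 3 KO libraries lay outside the WT range on one side for 9 of the 29 genes, 5 above and 4 below, and the background was 40.8%. With the 6 libraries kept separate 3 of the 29 were called (Npc2, Ebp and Abca1), where 18.9% of all genes were, and DESeq2 called the same 3, where it called 3919 of the 18660 genes. Scaling by library size alone turned the balance of all calls, of which 60.3% were higher with TMM scaling and 38.2% without it. The shares of the cholesterol genes were thus near or under those of all genes, and the values of a few single genes stood out from the rest of the list.

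**Figure D1:**
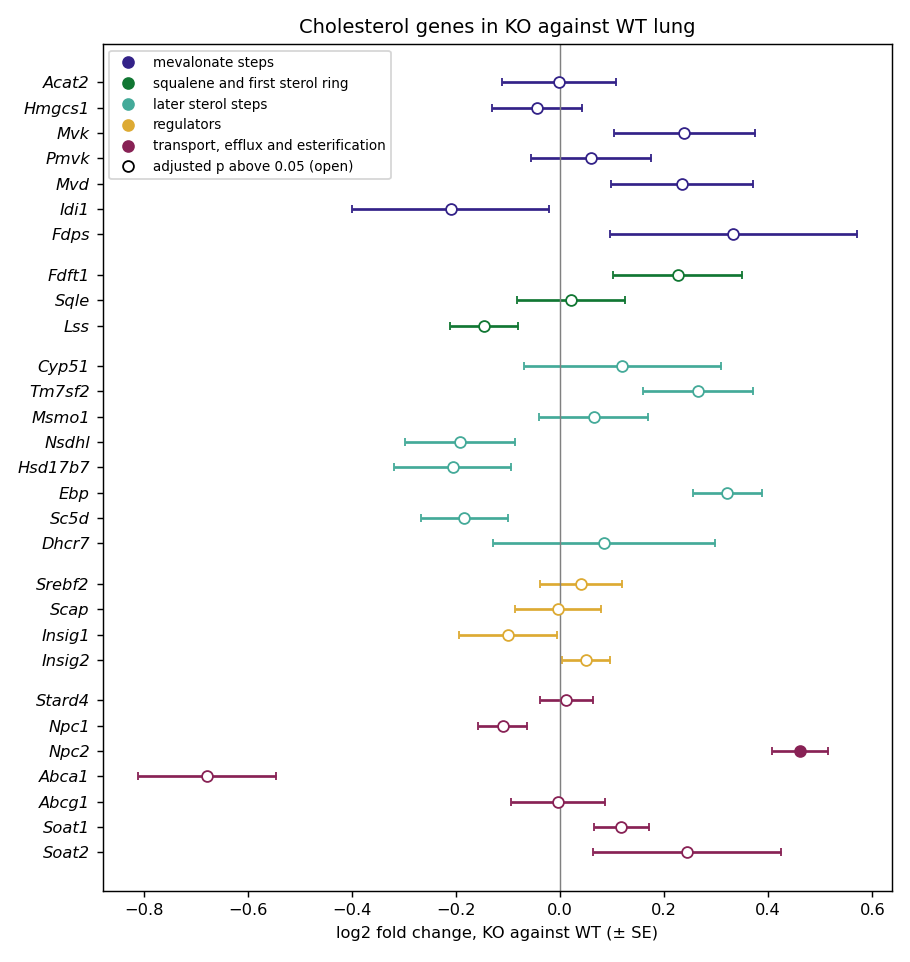
Log2 fold change of KO against WT (horizontal axis, edgeR estimate, bars are ± SE) for the 29 cholesterol genes, coloured by role. Npc2, the filled point at 0.46, passed an adjusted p of 0.05, Abca1 at -0.68 had the lowest estimate, and the 4 regulators lie between -0.10 and 0.05.

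Sterol transport held the genes with the 2 largest log2 fold changes, Npc2 and Abca1. Npc2 is the small soluble protein that binds cholesterol inside the lysosome and hands it to Npc1, and it is also secreted. It lies on chromosome 12 from 84754562 to 84773152 on the minus strand (GRCm38). Npc2 was at 789, 824 and 797 CPM in WT1, WT2 and WT3 and at 1094, 1102 and 1119 CPM in KO1, KO2 and KO3. Even the lowest KO library exceeded the highest WT library, and each genotype was tightly grouped, around 803 ± 18.4 CPM (SD, n = 3) for WT mice and around 1102 ± 11.6 CPM (SD, n = 2) for KO mice. Npc2 rose 1.38-fold, a log2 fold change of 0.46 (SE 0.05), and edgeR gave an adjusted p of 0.0446. It stayed between 0.41 and 0.51 over 16 alternatives, of which 10 called it. The call was lost without WT1, WT2, WT3 or KO1, without KO2 and KO3 together, and with an offset for gene length and GC content (edgeR adjusted p 0.172, 0.189, 0.123, 0.0854, 0.0840 and 0.106).

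Npc2 and the summed alveolar type 2 markers were both higher in KO. Per 1000 CPM of the summed alveolar type 2 markers, Npc2 was at 32.6, 33.2 and 31.6 CPM in WT1 to WT3 and at 30.7, 32.5 and 33.2 CPM in KO1 to KO3. On this scale the genotypes overlapped. They also overlapped per 1000 CPM of the 5 club cell markers, at 23.2 to 26.1 CPM in WT and 20.2 to 26.7 CPM in KO. Per 1000 CPM of the 9 endothelial markers, Npc2 was at 162 to 186 CPM in WT and 209 to 262 CPM in KO, without overlap. Npc2 was also higher in KO without overlap per both macrophage lists and per the adipocyte, cardiomyocyte and ciliated lists, it overlapped per the squamous and erythroid lists, and it was lower in KO per the hepatocyte list. The summed endothelial markers themselves overlapped, at 4429 to 4916 CPM in WT and 4250 to 5225 CPM in KO.

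Abca1 is the membrane transporter that loads cholesterol onto lipid-poor apolipoproteins, and a well-known target of the oxysterol receptors. It lies on chromosome 4 from 53030787 to 53159895 on the minus strand. Its level was 102, 127 and 118 CPM in WT1 to WT3 and 65.0, 79.6 and 78.2 CPM in KO1 to KO3. The genotypes did not overlap, and KO1 was the lowest library. WT mice averaged 116 ± 12.9 CPM (SD, n = 3), while KO mice averaged 72.0 ± 9.85 CPM (SD, n = 2). This log2 fold change of -0.68 (SE 0.13) was the largest in size of the 29 genes, and the edgeR adjusted p was 0.0606, above the threshold. Over 16 alternatives the log2 fold change was between -0.83 and -0.46, and the adjusted p passed in 5 of them, among them the 6 libraries kept separate (0.0155), DESeq2 (2.54e-05) and a term for the squamous markers (0.0285). Adding the replicate number as a block to the fit of the 6 separate libraries raised that adjusted p from 0.0155 to 0.0374.

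The summed macrophage markers lay lower in KO, with few single genes called. The 12 alveolar macrophage markers summed to 329, 363 and 390 CPM in WT1 to WT3 and to 325, 312 and 315 CPM in KO1 to KO3, and 8 of the 12 were lower by the estimate, 1 of them called. The 9 other macrophage markers summed to 438, 466 and 582 CPM in WT and to 399, 421 and 427 CPM in KO, with 8 of 9 lower and none called. Over all genes 47.8% of estimates were below 0 and 0.906% were called lower. None of these 21 genes was at 0 in all libraries. Per 1000 CPM of the alveolar macrophage markers, Abca1 was at 302 to 351 CPM in WT and 200 to 255 CPM in KO, and per 1000 CPM of the other macrophage markers at 202 to 274 CPM in WT and 163 to 189 CPM in KO. On both scales, and per endothelial markers (21.2 to 28.8 CPM in WT, 12.4 to 18.7 CPM in KO), all KO libraries stayed under all WT libraries. Per 1000 CPM of the adipocyte markers the order was the opposite, at 57.8 to 83.5 CPM in WT and 160 to 165 CPM in KO. Per 1000 CPM of the cardiomyocyte markers the genotypes overlapped, at 13.8 to 44.8 CPM in WT and 40.7 to 58.1 CPM in KO. The part of any of these cell types in the Abca1 difference was not tested.

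**Figure D2:**
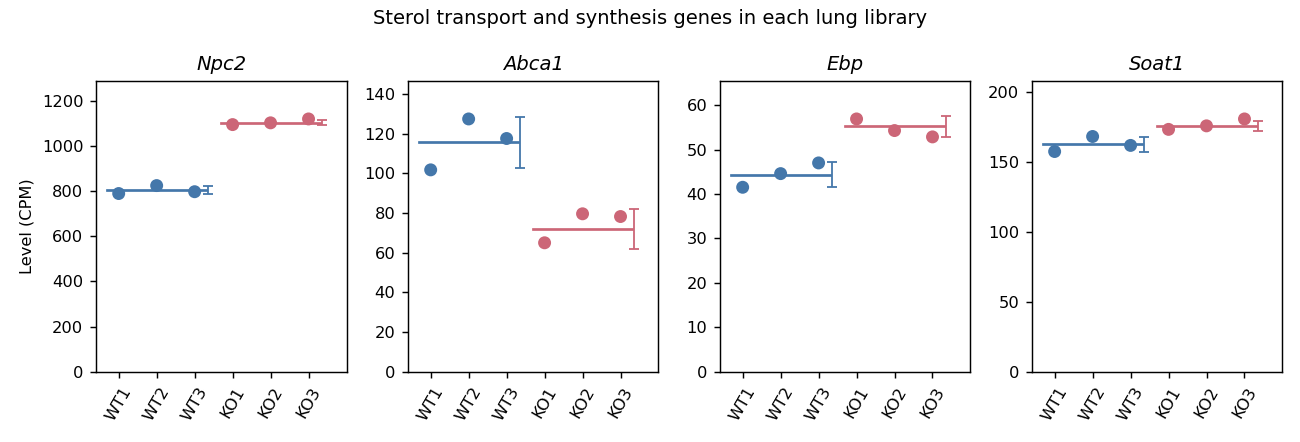
Level in CPM (vertical axes, from 0) of Npc2, Abca1, Ebp and Soat1 in each of the 6 libraries, with WT in blue and KO in red. Lines are means and bars SD (n = 3 for WT, n = 2 for KO with KO2 and KO3 as 1 sample); KO lies above WT for Npc2, Ebp and Soat1 and below WT for Abca1.

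**Figure D3:**
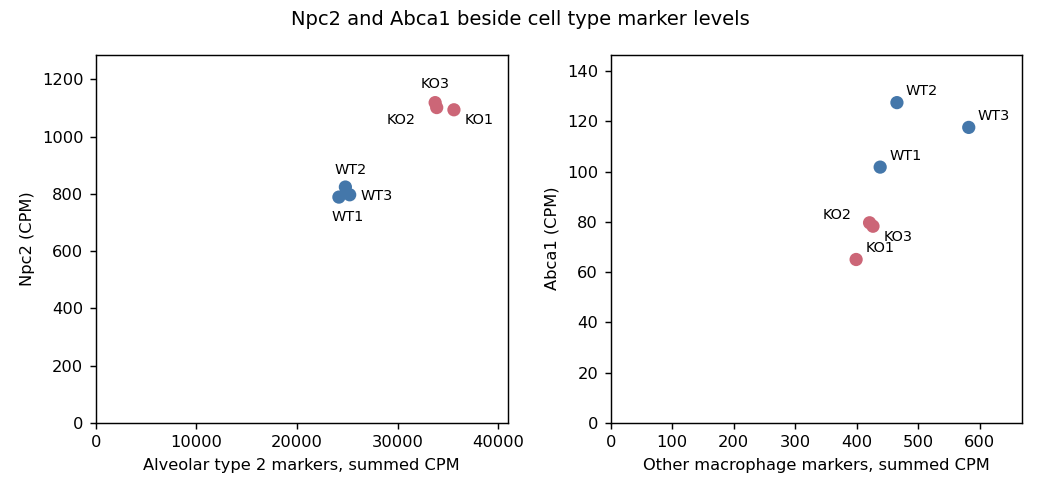
Left, Npc2 in CPM against the summed CPM of 13 alveolar type 2 markers, and right, Abca1 in CPM against the summed CPM of 9 other macrophage markers, with a point for each library (WT blue, KO red) and all axes from 0. Npc2 and the alveolar type 2 markers are both higher in KO, and the 3 KO libraries are lowest for Abca1 at macrophage marker sums of 399 to 427 CPM.

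The other transport genes differed less. Npc1, the lysosomal membrane protein that takes over cholesterol from Npc2, was at 134, 136 and 135 CPM in WT1 to WT3 and at 128, 121 and 121 CPM in KO1 to KO3. All KO libraries were lower, with a log2 fold change of -0.11 (SE 0.05, edgeR adjusted p 0.216), opposite in sign to that of Npc2. With the offset for gene length and GC content the sign of the Npc1 estimate turned (0.13). Soat1, the enzyme that esterifies cholesterol in most cells, was at 158, 168 and 162 CPM in WT1 to WT3 and at 173, 176 and 181 CPM in KO1 to KO3. The KO libraries were higher without overlap, but the log2 fold change of 0.12 (SE 0.05) did not pass (edgeR adjusted p 0.232). The Soat1 estimate was 0.33 with the length and GC offset and 0.064 with library size alone. Per 1000 CPM of the alveolar type 2 markers Soat1 was lower in KO, at 4.87 to 5.36 CPM against 6.41 to 6.78 CPM in WT. It was lower per the club cell and hepatocyte lists too. Soat1 was higher in KO without overlap per both macrophage lists and per the adipocyte and cardiomyocyte lists. It overlapped per the endothelial, ciliated, squamous and erythroid lists. Soat2, the esterifying enzyme of liver and gut, was low, with 77, 65 and 60 counts in WT1 to WT3 and 81, 66 and 62 counts in KO1 to KO3 (log2 fold change 0.24, SE 0.18, edgeR adjusted p 0.442). In CPM the KO libraries were just above WT, at 1.06 to 1.29 CPM against 0.925 to 1.05 CPM. The Soat2 estimate was 0.096 without KO1 and 0.11 with the length and GC offset. Abcg1, which exports cholesterol to lipoprotein particles and shares its receptor control with Abca1, had a log2 fold change of 0.00 in size (SE 0.09) and ranged from 51.0 to 61.4 CPM in WT and from 53.0 to 56.6 CPM in KO. Stard4, a cytosolic sterol carrier, ranged from 53.3 to 56.5 CPM in WT and from 53.8 to 57.9 CPM in KO. Abcg1 and Stard4 thus overlapped between genotypes, at edgeR adjusted p values of 0.982 and 0.906.

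The regulators of the pathway did not pass the test. Srebf2, the main transcription factor of the pathway, was at 210, 205 and 236 CPM in WT1 to WT3 and at 230, 217 and 213 CPM in KO1 to KO3. These ranges overlapped, with a log2 fold change of 0.04 (SE 0.08). Its escort Scap was at 85.2 to 96.5 CPM in WT and 82.5 to 94.1 CPM in KO. Insig1, itself a sterol-responsive gene, was at 59.7 to 68.7 CPM in WT and 55.2 to 64.5 CPM in KO, and Insig2 at 43.8 to 45.4 CPM in WT and 44.4 to 46.8 CPM in KO. For these 4 genes the edgeR adjusted p was between 0.534 and 0.982. By edgeR 0 were called and 0 had an unadjusted p up to 0.05, against 2.28% and 27.3% of all genes. DESeq2 called 0 of them, and 3919 of all 18660 genes. With only 4 genes, 0 calls cannot show that the regulators were unchanged. The largest log2 fold change in size was that of Insig1, at -0.10. The Insig1 estimate was -0.0097 without KO1 and -0.21 without KO2 and KO3 together.

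Among the 18 synthesis genes, 11 estimates were above 0 and 7 below, with a median log2 fold change of 0.06. None was called by edgeR, 1 had an unadjusted p up to 0.05 and 1 was called by DESeq2, in both cases Ebp. Of all genes, edgeR called 2.28% and gave 27.3% an unadjusted p up to 0.05, and DESeq2 called 3919 of 18660. Ebp is the sterol isomerase that shifts the ring double bond in the later steps, and it lies on the X chromosome from 8185329 to 8193512 on the minus strand. It was at 41.5, 44.6 and 47.0 CPM in WT1 to WT3 and at 56.9, 54.3 and 52.9 CPM in KO1 to KO3. KO was above WT without overlap, at 55.3 ± 2.35 CPM (SD, n = 2) against 44.4 ± 2.75 CPM (SD, n = 3). The difference, 0.32 on the log2 scale (SE 0.07), had an edgeR adjusted p of 0.0657, and 3 of 16 alternatives called it (the 6 libraries kept separate, DESeq2 and the squamous term). Unlike Npc2, Ebp per 1000 CPM of alveolar type 2 markers was lower in KO, at 1.57 to 1.60 CPM against 1.72 to 1.86 CPM in WT. It was higher in KO without overlap per both macrophage lists and per the adipocyte, cardiomyocyte and endothelial lists, overlapped per the club, ciliated, squamous and erythroid lists, and was lower in KO per the hepatocyte list.

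The enzymes that act next to Ebp went in both directions by their estimates. Tm7sf2, a sterol reductase, was at 11.3, 11.3 and 13.1 CPM in WT1 to WT3 and at 15.0, 13.9 and 13.2 CPM in KO1 to KO3, with the lowest KO library just above the highest WT library (log2 fold change 0.27, SE 0.10, edgeR adjusted p 0.185). Hsd17b7, the ketoreductase of sterol demethylation, was at 18.7, 18.4 and 20.2 CPM in WT1 to WT3 and at 18.3, 15.0 and 14.4 CPM in KO1 to KO3. All KO libraries of Hsd17b7 were below WT, KO1 only by a small margin (log2 fold change -0.21, SE 0.11, edgeR adjusted p 0.309). The estimate for Hsd17b7 was -0.11 under the offset for length and GC content. Nsdhl, the dehydrogenase of the same demethylation, and Sc5d, a late desaturase, had log2 fold changes of -0.19 and -0.18 with overlapping ranges. Without KO1 the estimates were larger in size, at -0.38 for Hsd17b7, -0.34 for Nsdhl and -0.29 for Sc5d. Msmo1 and Cyp51, which remove methyl groups from lanosterol, and Dhcr7, the last reductase, were at 0.06, 0.12 and 0.08. Their sign turned without KO1, to -0.079, -0.095 and -0.26. Apart from Ebp the later enzymes had edgeR adjusted p values of 0.185 to 0.835.

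In the squalene steps, Lss, which closes squalene epoxide into lanosterol, was at 48.4, 52.5 and 54.0 CPM in WT1 to WT3 and at 48.3, 44.6 and 44.9 CPM in KO1 to KO3. WT1 and KO1 were nearly equal, so that the ranges only just separated (log2 fold change -0.15, SE 0.07, edgeR adjusted p 0.231). With the offset for gene length and GC content the estimate for Lss turned to 0.07. Sqle, the epoxidase that limits the late pathway, was at 45.0, 51.4 and 55.4 CPM in WT1 to WT3 and at 54.3, 48.8 and 47.3 CPM in KO1 to KO3, with complete overlap (log2 fold change 0.02, SE 0.10). Fdft1, which joins farnesyl units into squalene, had a log2 fold change of 0.23 (SE 0.12, edgeR adjusted p 0.313), which was 0.027 without KO1.

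In the mevalonate steps all 7 genes overlapped between genotypes, where 40.8% of all genes tested did not. Hmgcs1, the synthase that opens the pathway and the synthesis gene with the highest median level per kilobase of exon over the 6 libraries, was at 106, 114 and 112 CPM in WT1 to WT3 and at 116, 97.6 and 97.6 CPM in KO1 to KO3 (log2 fold change -0.04, SE 0.09). The kinases Mvk and Pmvk and the decarboxylase Mvd had log2 fold changes of 0.24, 0.06 and 0.23. Without KO1 the estimates were 0.023 for Mvk, -0.089 for Pmvk and 0.041 for Mvd. Acat2, the thiolase that supplies acetoacetyl-CoA, was at 0.00 in size and Fdps, which makes farnesyl diphosphate, at 0.33 (SE 0.24). The Fdps estimate was -0.081 without KO1. Idi1, the isomerase of the isoprenoid units, had only 65 to 117 counts per library, and its log2 fold change was -0.21 (SE 0.19). Leaving out libraries put the Idi1 estimate between -0.31 and -0.093, the latter without WT2. The edgeR adjusted p of these 7 genes was between 0.325 and 0.994.

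Most synthesis genes had a difference between libraries of the same genotype. In 17 of the 18 synthesis genes KO1 was the highest KO library, against 43.1% of all genes tested, and in 14 of the 18 WT3 was also the highest WT library, a combination found in 22.7% of all genes. By role the combination occurred in 4 of 7 mevalonate genes, in 3 of 3 genes of the squalene steps, in 7 of 8 later enzymes, in 2 of 4 regulators (Srebf2 and Scap) and in 1 of 7 transport and storage genes (Abcg1). The 18 genes summed to 589, 641 and 683 CPM in WT1 to WT3 and to 722, 594 and 595 CPM in KO1 to KO3. Fdps had the largest difference of KO1 from KO2 and KO3, at 21.6, 22.3 and 27.8 CPM in WT1 to WT3 and at 37.5, 22.7 and 22.6 CPM in KO1 to KO3. Dhcr7 was at 23.0, 22.6 and 29.3 CPM in WT1 to WT3 and at 31.9, 20.4 and 21.4 CPM in KO1 to KO3. Both genes, chosen after their values were seen, were highest in the same 2 libraries that held squamous epithelium transcripts, and KO2 and KO3 were the libraries with the most erythroid transcripts. The part of either in the pattern was not tested.

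The median log2 difference of KO1 from the mean of KO2 and KO3 was 0.27 over the synthesis genes, and that of WT3 from the mean of WT1 and WT2 was 0.15, while both were 0.00 in size over all genes. The values are also given separately for the 2 libraries with squamous transcripts, although their squamous sums differed (4812 and 9172 CPM), and for the other 4, whose erythroid sums were 2400 to 2668 CPM in WT1 and WT2 and 18992 to 19737 CPM in KO2 and KO3. KO1 was above WT3 in 12 of the 18 synthesis genes, with a median log2 difference of 0.09. KO2 and KO3, as their mean, were below the mean of WT1 and WT2 in 11 of 18, with a median of -0.03. These are descriptions of single libraries and pairs, with no test. For Npc2 the same log2 differences were 0.46 in both comparisons, for Ebp 0.28 and 0.32, and for Abca1 -0.86 and -0.54.

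**Figure D4:**
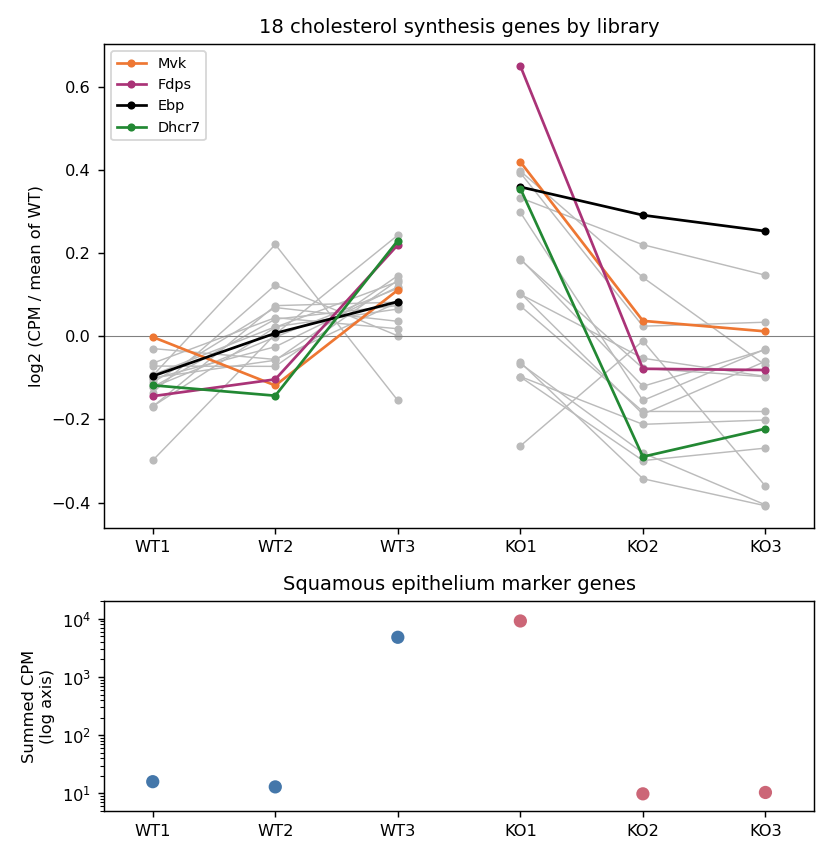
Top, log2 of the CPM over the mean of WT (vertical axis) for the 18 cholesterol synthesis genes in each library, with lines joining the libraries of a genotype for a gene, in no order of time or dose, and with Mvk, Fdps, Ebp and Dhcr7 in colour or black. Bottom, the summed CPM of the squamous epithelium markers on a log axis (WT blue, KO red); KO1 and WT3, at 9172 and 4812 CPM, are also the libraries where most synthesis genes are highest within their genotype.

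Levels per kilobase of annotated exon placed the members in order. Npc2 was highest, with a median over libraries of 176 CPM per kilobase, followed by Srebf2 at 30.0 and Hmgcs1 at 23.7. Ebp, Pmvk and Insig1 came next at 21.6, 20.4 and 20.3. The ranges over libraries of Hmgcs1 (21.2 to 25.3), Ebp (18.0 to 24.6), Pmvk (18.1 to 23.2) and Insig1 (17.8 to 22.2) overlapped, so that the order of these 4 genes is not set. Soat2 and Idi1 were lowest, at 0.477 and 0.374. These values use all annotated exons of a gene, which understates genes with many rarely used exons.

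Other genes of sterol handling were taken from a list of 42, of which 41 were tested. By edgeR, 1 was called higher, Fdx1, and 1 lower, Lipa, where 2.28% of all genes were called. The KO libraries lay above WT for 9 genes and below for 12 (51.2% in all), against 40.8% of all genes. Lipa, the lysosomal acid lipase that frees cholesterol from its esters upstream of Npc2, was at 91.4, 86.9 and 91.1 CPM in WT1 to WT3 and at 71.2, 67.0 and 66.7 CPM in KO1 to KO3. KO was below WT without overlap, with a log2 fold change of -0.38 (SE 0.05, edgeR adjusted p 0.0474), so that Lipa and Npc2, which act in the same organelle, were called in opposite directions. Fdx1, the electron donor of mitochondrial cytochrome P450 enzymes, was at 28.2, 28.8 and 30.5 CPM in WT1 to WT3 and at 39.0, 43.0 and 39.9 CPM in KO1 to KO3 (log2 fold change 0.47, SE 0.06, edgeR adjusted p 0.0446). Both calls were lost in the same 6 alternatives as that of Npc2.

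Further genes of that list had groups that did not overlap but missed the threshold. The lipoprotein receptor Vldlr was at 107, 101 and 95.7 CPM in WT1 to WT3 and at 76.3, 64.1 and 66.0 CPM in KO1 to KO3 (log2 fold change -0.51, SE 0.09, edgeR adjusted p 0.0535). Lrp1, a large endocytic receptor, was at -0.33 on the log2 scale (edgeR adjusted p 0.119). Cyb5r3 and Por, reductases that feed electrons to sterol enzymes, were at 0.24 and 0.30 (0.0706 and 0.142). Ggps1, which diverts farnesyl units to protein prenylation, and Erlin2, a membrane protein that restrains Srebf2 activation, were at -0.24 and -0.18 (0.0782 and 0.126). Ch25h, which makes an oxysterol, was at 0.67 and the efflux transporter Abcg4 at -0.52 (0.138 and 0.143), both below 10 CPM in every library. With the length and GC offset several of these were nearer to 0, at -0.30 for Vldlr, -0.13 for Lrp1, -0.14 for Ggps1, -0.050 for Erlin2 and -0.23 for Lipa.

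Strand use in counting was not given in the sources used here, and 9 of the 29 genes share exon sequence with another annotated gene, among them Fdft1 with Ctsb, Cyp51 with Akap9 and Tm7sf2 with Vps51, so that part of their counts is uncertain. Npc2, Abca1 and Ebp share none.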

How the data were processed

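Lung RNA of 3 WT and 3 KO mice was sequenced. The authors deposited unnormalised read counts, 1 value for each gene in each library. Per the labels and the study's methods, reads were trimmed with Trimmomatic 0.36, aligned to GRCm38 (mm10) with STAR 2.5.3a and counted with HTSeq 0.6.0; Picard 2.9.0 was also named. Total counts were 59134950 to 71354388, which puts a floor of 3 counts at 0.0410 to 0.0514 CPM (counting error only). The members and all lists were chosen with earlier results of these data known.

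KO2 and KO3 were summed, since they differed less than any other pair of the same genotype. edgeR 4.0.16 in R 4.3.3 was used on 5 samples (filterByExpr, TMM scaling, quasi-likelihood test, two-sided, Benjamini-Hochberg adjustment over all 18660 tested genes, with calls up to an adjusted p of 0.05). Standard errors came from the fold change and the F statistic of each gene, and the scripts were tested on simulated data. DESeq2 1.42.0 was an alternative; others concerned scaling, filters, the 6 libraries kept separate, a squamous epithelium term, an offset for gene length and GC content, a replicate block and leaving out libraries. CPM values use TMM-scaled totals. Positions and lengths are from GENCODE release M21 (40340 of 41388 identifiers matched). Every library value was given for genes that were called, did not overlap or had an unadjusted p of at most 0.05, and for the gene with the highest level of each role; of the other list, the first 10 by p that were called or did not overlap were named. Whether the libraries came from separate mice is stated by the study, but KO2 and KO3 were not treated as such.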

Additional observations from a re-analysis of the deposited data

How the results depend on the processing

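The number of cholesterol genes called, 1, became 3 with the 6 libraries kept separate, with DESeq2 and with the squamous epithelium term, 2 where every library had to hold 10 counts or more, 2 with the replicate block added to the fit of the 6 separate libraries (which lost Ebp), and 0 with the length and GC offset; leaving out libraries gave 0 to 1. For all genes, 426 calls became 3402, 3919, 2546, 937, 1157 and 0 under the same settings (with 3498 genes at an unadjusted p up to 0.05), and 0 to 418 without a library or a pair (0 without WT1, WT2 or WT3, or without KO2 and KO3 together, with 3346 to 5070 genes at an unadjusted p up to 0.05; 17 without KO1). The 2 calls among the other pathway genes became 9, 12, 6, 4 and 0 with the separate libraries, DESeq2, the squamous term, the block and the offset, and were 0 to 2 without libraries. Where 1 KO sample was left, it was assumed to vary like WT. The replicate numbers share no animal, and of the same-numbered libraries WT2 and KO2 varied together (r = 0.69) while WT1 and KO1 (r = -0.66) and WT3 and KO3 (r = -0.78) did not. This was not particular to the shared number. WT2 had the same r with KO3 (0.69), and WT1 had 0.60 with KO2 and 0.62 with KO3. The highest r was that of WT3 and KO1 (0.85). The block was fitted on the 6 separate libraries, where it lowered the count of all calls from 3402 to 1157. The shorter sterol motif was in 2 promoters, not 1.

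The median log2 fold change of the 29 genes ranged from -0.079 (without KO1) to 0.091. Of the 29 genes, 14 kept their sign in all 16 alternatives, among them Npc2, Abca1 and Ebp. The other 15 did not, and the cause was not tested. With the length and GC offset, Hmgcs1 was at 0.032, Pmvk at -0.11, Lss at 0.074, Scap at 0.020, Npc1 at 0.13 and Abcg1 at 0.079. With library size alone, Sqle was at -0.033, Srebf2 at -0.013, Insig2 at -0.0040 and Stard4 at -0.043. With the separate libraries, the squamous term and the block, Sqle was at -0.013, -0.010 and -0.011 and Dhcr7 at -0.021, -0.020 and -0.042. Leaving out libraries gave ranges of -0.13 to 0.10 for Acat2, -0.18 to 0.071 for Hmgcs1, -0.089 to 0.18 for Pmvk, -0.081 to 0.65 for Fdps, -0.076 to 0.10 for Sqle, -0.095 to 0.30 for Cyp51, -0.079 to 0.18 for Msmo1, -0.26 to 0.35 for Dhcr7, -0.014 to 0.10 for Srebf2, -0.10 to 0.072 for Scap, -0.028 to 0.037 for Stard4 and -0.057 to 0.073 for Abcg1. Without KO1 the estimates were -0.081 for Fdps and -0.26 for Dhcr7, and those of Mvk, Mvd and Fdft1 kept their sign at 0.023, 0.041 and 0.027.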
